A study of Rattus norvegicus with 9 samples.

Results

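Immediate early genes of neuronal activity were followed in the whole brain of rats that carried 0, 1 or 2 copies of a deletion in Lrap, a long non-coding RNA gene. The 10 genes were Fos, Fosb, Fosl2, Junb, Egr1, Egr2, Egr4, Npas4, Nr4a1 and Arc. Each was taken as the locus of the deposited assembly that carries the gene's name and overlaps the annotated gene on the same strand, the one with the highest mean count where several did. Loci that carry the name but lie beside the gene, inside an intron on the other strand or antisense to it did not qualify. They are 10 of the 114601 loci in the gene count table, of which 16369 carry a gene symbol. The rats were male, had not been given alcohol and were untreated. The deletion, made with CRISPR/Cas9, removes 618 bp, and 3 of the 9 rats were wild type, 3 heterozygous and 3 homozygous for it. The heterozygous rats thus had 1 deleted allele and the homozygous rats 2, and no other allele or agent is named in the labels. Rats are numbered 1 to 3 within each genotype as in the labels, which do not say that a shared number marks a shared litter or day. RNA was read as stranded libraries after removal of ribosomal RNA. The sources used here give neither the ages of the rats nor their handling before death, nor do they say that wild types and mutants were littermates, so line and genotype cannot be told apart.

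Immediate early genes are transcribed within minutes of a stimulus without the need for new protein. In neurons, calcium that enters through synaptic receptors and voltage-gated channels activates kinases that act on CREB, which binds cyclic AMP response elements, and on ternary complex factors that work with the serum response factor at serum response elements. Most of the genes encode transcription factors, and Arc encodes a protein that acts at synapses. Their RNA is short-lived, which is why their levels in brain tissue are widely used as a mark of recent neuronal activity.

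The sequence just before the gene start is shown for 4 of the genes because it carries letters of the regulatory elements named above. RefSeq promoter windows (build GRCr8, which differs from the rn6 build of the count tables) were matched by symbol for 8 of the 10 genes, and Fos and Arc were not matched. In the 250 bases before the start, capitals mark a CArG box, the core of the serum response element, or the letters CGTCA, a part of the cyclic AMP response element (TGACG on the other strand, searched as well). The windows are chr18:26736828-26737077 on the plus strand for Egr1, chr20:21054442-21054691 on the minus strand for Egr2, chr4:119607818-119608067 on the minus strand for Egr4 and chr7:134259888-134260137 on the plus strand for Nr4a1, each written 5′ to 3′.
Egr1: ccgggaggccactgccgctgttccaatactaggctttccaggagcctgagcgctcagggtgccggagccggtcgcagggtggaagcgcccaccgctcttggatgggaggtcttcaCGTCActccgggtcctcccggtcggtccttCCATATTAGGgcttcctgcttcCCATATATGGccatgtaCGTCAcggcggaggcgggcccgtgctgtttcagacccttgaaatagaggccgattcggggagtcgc
Egr2: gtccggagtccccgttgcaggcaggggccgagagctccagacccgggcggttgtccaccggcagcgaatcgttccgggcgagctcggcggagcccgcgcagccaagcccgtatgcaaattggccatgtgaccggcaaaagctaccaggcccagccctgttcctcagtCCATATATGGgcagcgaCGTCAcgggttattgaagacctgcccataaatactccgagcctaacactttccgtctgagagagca
Egr4: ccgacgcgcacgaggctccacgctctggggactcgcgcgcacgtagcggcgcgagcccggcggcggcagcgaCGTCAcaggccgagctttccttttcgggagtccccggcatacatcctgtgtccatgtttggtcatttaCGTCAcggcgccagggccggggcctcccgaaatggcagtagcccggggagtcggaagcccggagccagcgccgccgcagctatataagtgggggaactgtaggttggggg
Nr4a1: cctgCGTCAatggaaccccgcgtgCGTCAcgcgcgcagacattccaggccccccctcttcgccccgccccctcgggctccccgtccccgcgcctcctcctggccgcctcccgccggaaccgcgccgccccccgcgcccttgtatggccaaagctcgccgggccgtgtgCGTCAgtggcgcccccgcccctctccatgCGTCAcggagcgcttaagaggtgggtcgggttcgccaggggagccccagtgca

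Egr1 held 2 CArG boxes and Egr2 held 1, and none of the other 6 windows searched held one. Of all 27457 windows of the same length, 1.5% held a CArG box. In both Egr1 and Egr2 a CArG box covered bases -83 to -74 from the gene start and CGTCA followed at -66 to -62. The shorter motif CGTCA was present in Egr1 (2 copies), Egr2 (1), Egr4 (2), Nr4a1 (4) and Junb (1), that is in 5 of 8 windows, against 19% of all windows. The Egr motif GCGNGGGCG was present in Fosl2 and Nr4a1, against 4.53% of all windows. The full site TGACGTCA and the AP-1 site TGANTCA were in 0 of the 8 windows, against 1.7% and 6.36% of all. The full site contains the shorter motif on each strand. A match describes letters in these windows, not binding.

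**Figure D1:**
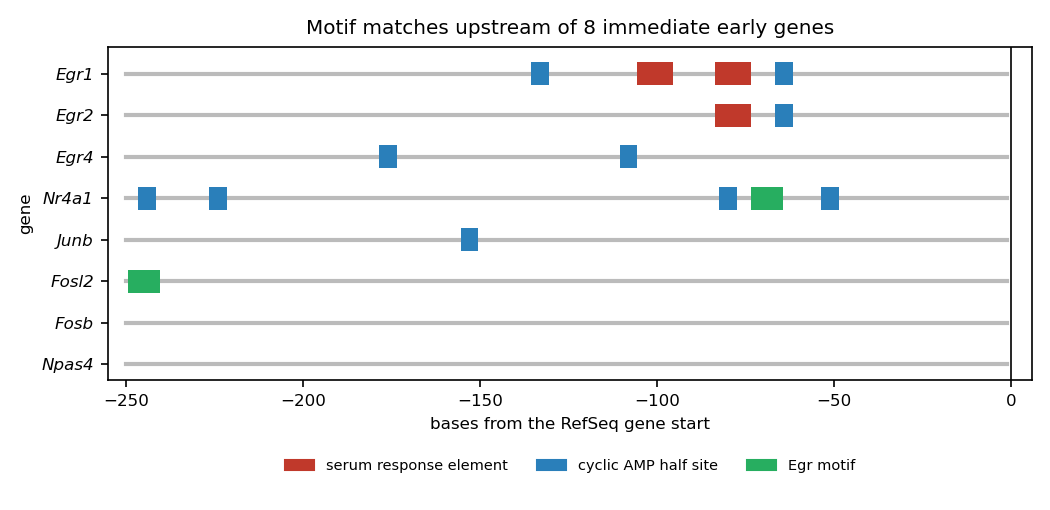
Positions of motif matches (red, CArG box; blue, CGTCA; green, GCGNGGGCG; the last pair on either strand) in the 250 bases before the RefSeq gene start of 8 immediate early genes, with distance from the start in bases on the horizontal axis. The boxes of Egr1 and Egr2 nearest to the start sit at the same distances (-83 to -74 and -66 to -62), and Fosb and Npas4 have none.

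Library totals ran from 27489383 to 46975919 expected counts, and all 10 genes passed the filter on low counts, which kept 39057 loci. Counts per rat behind the values ran from 21 to 306 for Egr2, 36 to 95 for Egr4 and 682 to 5627 for Arc, so that counting error weighs most on Egr4 and Egr2. In 3 isoforms an exon holds a stretch of the deleted length that another isoform of the locus skips. The one on chromosome 12 ranged over 1.89 to 2.58 CPM (wild type), 1.00 to 1.11 (heterozygous) and 0.245 to 0.401 (homozygous). Those on chromosomes 10 and 2 ranged over 10.5 to 41.5 and 1.61 to 3.27 CPM, with overlapping genotypes. The labels do not give the position of the deletion, so which of these lies in Lrap was not settled from them. Levels are CPM, counts relative to the TMM-scaled library size. The libraries did not all look alike. Mitochondrial loci took 40.4% of counts in wild-type rat 2 and 14.8 to 28.1% in the other rats. Profiles of the added spike-in RNA fell into 2 patterns, with r of at least 0.994 within and at most 0.958 between them: wild-type rat 2 and the homozygous rats had one, and the other wild-type and the heterozygous rats had the other. Markers of excitatory forebrain neurons summed to 985 to 1460 CPM (wild type), 1110 to 1310 (heterozygous) and 983 to 1240 (homozygous). Cerebellar markers summed to 43.3 to 645, 179 to 317 and 40.4 to 524 CPM in the same order, and so varied within each genotype. In bulk tissue, fewer cells of a type and less RNA per cell cannot be told apart.

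Per unit of length, by the authors' TPM averaged over the 9 rats, Arc was the most abundant of the genes at 9.47 ± 5.66 TPM (SD, n = 9). Egr1 followed at 6.24 ± 3.00, then Nr4a1 at 3.33 ± 1.76, Fos at 3.29 ± 1.89, Junb at 1.99 ± 0.933, Npas4 at 1.36 ± 0.609 and Fosl2 at 1.31 ± 0.559 TPM. Egr2, Fosb and Egr4 were lowest, at 0.498 ± 0.353, 0.492 ± 0.260 and 0.379 ± 0.126 TPM. Neighbours in this order differed by less than the larger of their SDs, except Fosl2 and Egr2.

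The AP-1 proteins come first: Fos-family members pair with Jun-family members to form this transcription factor. Fos (locus MSTRG.90612, chromosome 6, 109300433 to 109303845, plus strand, rn6) measured, in rats 1 to 3 of each genotype, 10.4, 4.66 and 4.29 CPM (wild type), 2.70, 12 and 27.3 (heterozygous) and 13.6, 30.4 and 22.7 (homozygous). Every homozygous rat lay above every wild-type rat, whereas heterozygous rat 1 was the lowest of all 9 and heterozygous rat 3 was among the highest. Genotype means were 6.46 ± 3.45, 14 ± 12.4 and 22.2 ± 8.44 CPM (SD, n = 3 each). Fosb (MSTRG.3547, chromosome 1, 80214423 to 80221679, minus strand), a Fos relative whose truncated form ΔFosB builds up under repeated stimulation, measured 3.91, 1.48 and 1.18 CPM (wild type), 1.96, 4.89 and 4.70 (heterozygous) and 3.27, 7.11 and 4.20 (homozygous). Its wild-type rat 1 lay above homozygous rat 1, so the groups overlapped.

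Fosl2, which encodes the Fos-related antigen Fra-2 (MSTRG.87069, chromosome 6, 25599297 to 25617932, minus strand), measured 5.81, 2.68 and 2.26 CPM (wild type), 3.51, 5.68 and 6.59 (heterozygous) and 4.69, 11.1 and 6.04 (homozygous). Here too wild-type rat 1 was above homozygous rat 1. A locus with the name Fosl2 that lies 580 bp downstream on the same strand without overlap (MSTRG.87064) had a higher count and did not qualify. It was at 14.1 ± 3.63, 21.8 ± 6.35 and 20.6 ± 4.33 CPM (SD, n = 3 each), with a log2 fold change of 0.55 (SE 0.25) between homozygous and wild-type rats. It did not pass (edgeR adjusted p = 0.544), and whether it belongs to the same transcript was not tested. Junb, the Jun-family partner (MSTRG.49253, chromosome 19, 26092974 to 26094756, minus strand), measured 5.52, 1.59 and 2.48 CPM (wild type), 2.81, 4.99 and 11.5 (heterozygous) and 11.1, 13 and 11.3 (homozygous). The homozygous rats were close together and all above the wild-type rats, and heterozygous rat 3 was among them. An antisense locus, MSTRG.49254, overlaps Junb over 634 bp, and the sources used here do not say whether counting used the strand. It was at 2.84 ± 0.135, 2.30 ± 0.233 and 2.73 ± 0.479 CPM, and its log2 fold change was -0.06 (SE 0.23; edgeR adjusted p = 0.933).

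Egr genes encode zinc-finger transcription factors that bind GC-rich motifs. Egr1, also called Zif268 (MSTRG.45676, chromosome 18, 27657628 to 27661429, plus strand), measured 39.5, 15.7 and 19.1 CPM (wild type), 23.3, 54.0 and 50.4 (heterozygous) and 35.2, 58.5 and 38.4 (homozygous). Heterozygous rats 2 and 3 lay above homozygous rats 1 and 3, and wild-type rat 1 was also above those homozygous rats. Egr2, or Krox20, also known as a regulator of myelination in peripheral nerve (MSTRG.62815, chromosome 20, 22454463 to 22459025, minus strand), measured 3.09, 1.33 and 0.526 CPM (wild type), 0.901, 4.89 and 4.62 (heterozygous) and 1.64, 7.16 and 4.08 (homozygous). It had the widest range of the 10 genes, with the highest rat at 13.6 times the lowest. Egr4 (MSTRG.75918, chromosome 4, 117293620 to 117296082, minus strand) had the narrowest, 2.41 times. It measured 1.23, 0.937 and 0.902 CPM (wild type), 0.967, 1.92 and 2.05 (heterozygous) and 1.77, 2.18 and 1.84 (homozygous), and all homozygous rats lay above all wild-type rats.

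Npas4 encodes a neuronal transcription factor that responds to calcium entry and regulates inhibitory synapses. It (MSTRG.10109, chromosome 1, 220259896 to 220265772, minus strand) measured 10.5, 5.70 and 3.51 CPM (wild type), 3.69, 6.69 and 13.7 (heterozygous) and 11.9, 21.3 and 11.9 (homozygous). The homozygous rats lay above the wild-type rats by a small margin over wild-type rat 1, and of the heterozygous rats number 3 was above homozygous rats 1 and 3. Nr4a1 (MSTRG.98537, chromosome 7, 142899436 to 142920216, plus strand), an orphan nuclear receptor also called Nur77, measured 16.2, 4.95 and 5.14 CPM (wild type), 6.19, 19.0 and 25.1 (heterozygous) and 14.4, 32.1 and 21.4 (homozygous). Wild-type rat 1 was above homozygous rat 1.

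Arc encodes a protein that lowers AMPA receptors at synapses, and its RNA travels into dendrites. The locus (MSTRG.96867, chromosome 7, 115907097 to 115910541, minus strand) measured 50.8, 17.8 and 17.5 CPM (wild type), 19.0, 72.0 and 81.3 (heterozygous) and 54.3, 132 and 65.6 (homozygous). Homozygous rats did not overlap with wild type, although wild-type rat 1 and homozygous rat 1 were 50.8 and 54.3 CPM. Genotype means were 28.7 ± 19.2, 57.4 ± 33.7 and 83.8 ± 41.8 CPM (SD, n = 3 each).

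**Figure D2:**
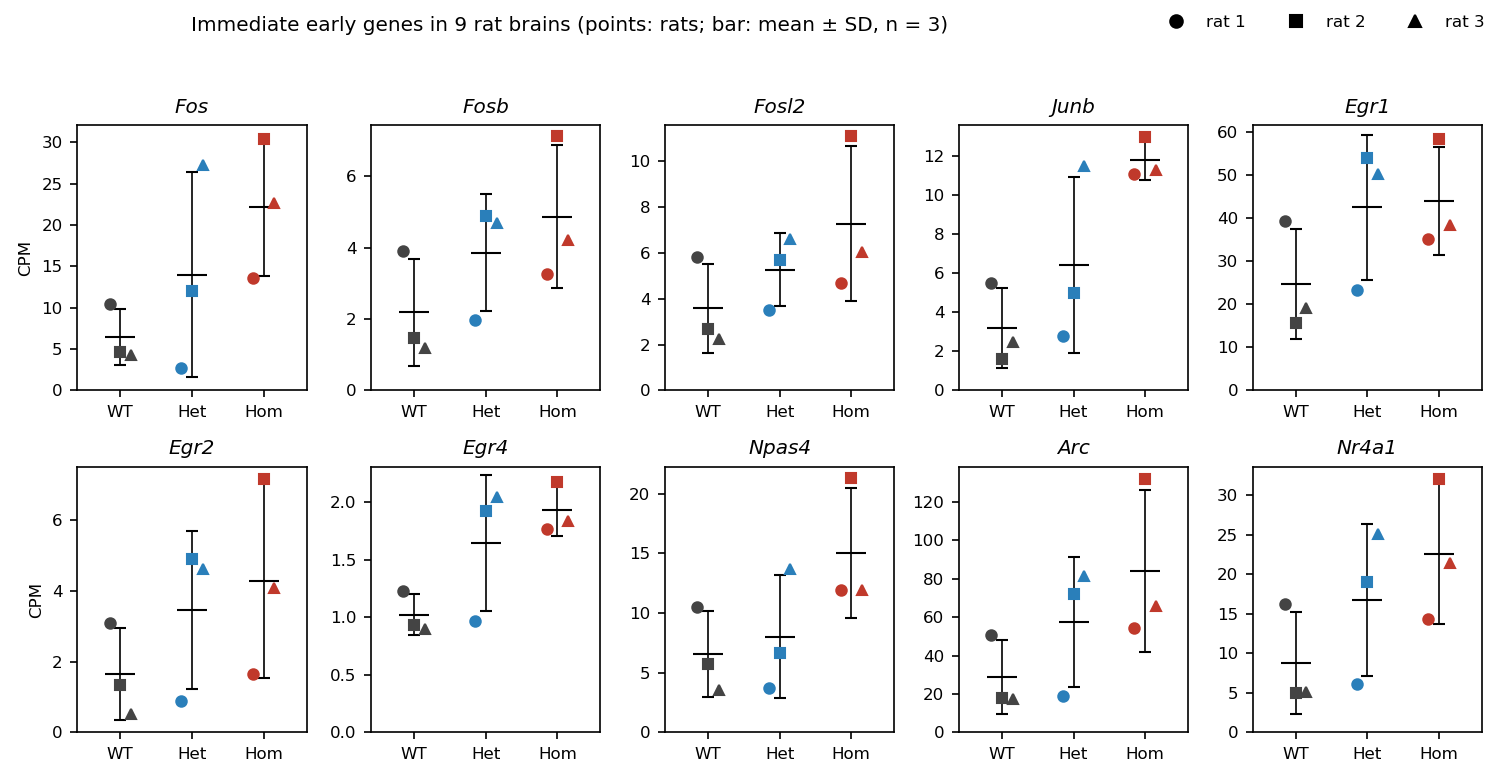
CPM (vertical axes, linear, from 0) of the 10 genes in wild-type (WT), heterozygous (Het) and homozygous (Hom) rats, 1 panel per gene. Marks are rats 1 to 3, bars the mean ± SD (n = 3); wild-type rats 2 and 3 and heterozygous rat 1 sit lowest in every panel and homozygous rat 2 highest.

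The same rats were high or low in every gene. Wild-type rats 2 and 3 and heterozygous rat 1 were the 3 lowest of the 9 rats in all 10 genes, and homozygous rat 2 was the highest in all 10. Summed over the genes, wild-type rats 1 to 3 had 147, 56.7 and 56.9 CPM, the heterozygous rats 65, 186 and 227 and the homozygous rats 152, 315 and 187. The highest sum was 5.54 times the lowest. A score per rat, the mean over the genes of log2(CPM + 0.5) standardised over the 9 rats, ranged from -1.32 in wild-type rat 3 to 1.34 in homozygous rat 2. Its largest gap, 1.2, separated the 3 low rats from the other 6, and the next largest was 0.5. Each genotype but the homozygous thus had rats on both sides: 1 of 3 wild-type and 2 of 3 heterozygous rats lay above the gap. Wild-type rat 1 (score 0.15) and homozygous rat 1 (0.21) were next to each other. Of the 3 low rats, mitochondrial loci took 40.4% of counts in wild-type rat 2, 19.6% in wild-type rat 3 and 23.4% in heterozygous rat 1, and both spike-in patterns were among them.

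**Figure D3:**
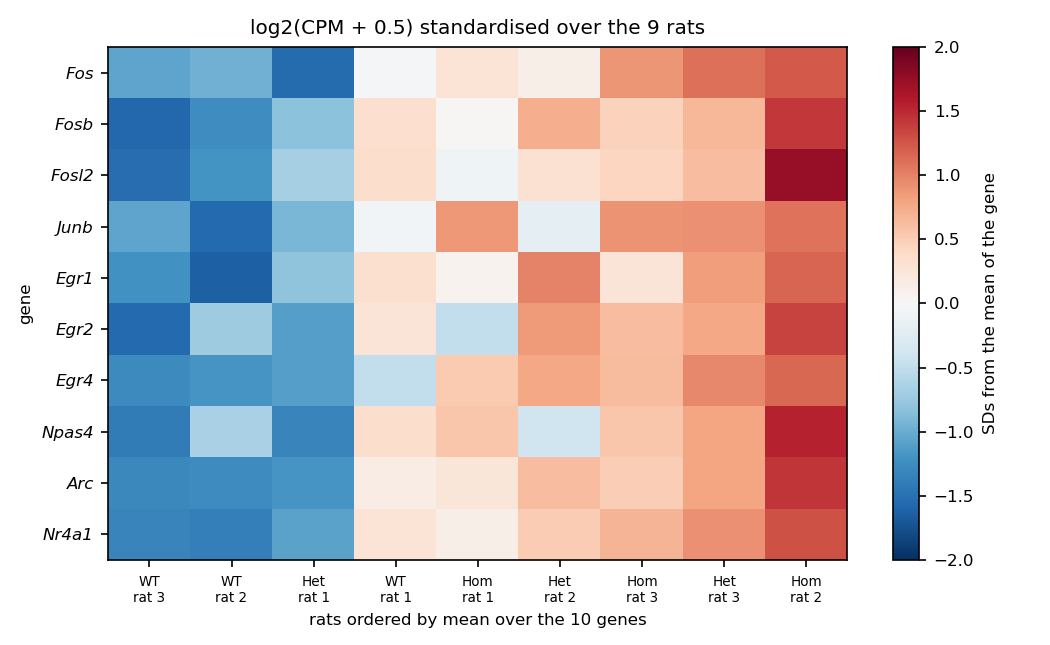
Standardised log2(CPM + 0.5) of the 10 genes (rows) in the 9 rats (columns, ordered by the mean over the genes); red is above and blue below the mean of a gene, in SDs. The 3 columns on the left, wild-type rats 3 and 2 and heterozygous rat 1, are blue in every row.

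Homozygous and wild-type rats were compared to ask how loss of both copies relates to these genes. All 10 genes had a higher level in homozygous rats, with log2 fold changes from 0.83 (Egr1) to 1.88 (Junb) and a median of 1.28, and 0 of 10 passed the test (edgeR quasi-likelihood, adjusted p from 0.544 to 0.547, Benjamini-Hochberg over all loci tested). At the same threshold 0% of the tested loci and 0% of the symbol genes were called. At an unadjusted p under 0.05, 8 of 10 genes were higher, all but Egr1 and Egr2, beside 4.88% of all tested loci and 10.7% of symbol genes. In total 3565 loci had such a p in either direction. Log2 fold changes above 0 were found in 44.3% of loci and 74.9% of symbol genes, with medians of -0.07 and 0.15. Groups did not overlap, with homozygous rats higher, for Fos, Junb, Egr4, Npas4 and Arc, 5 of 10 genes against 7.29% of loci and 15.6% of symbol genes. The genes moved together across rats, so counts over the 10 genes, here and below, are not made of separate observations. The genes were also chosen with earlier results of these data known.

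Among single genes, Junb had the smallest p, with means of 3.20 ± 2.06 CPM (wild type) and 11.8 ± 1.08 CPM (homozygous) and a log2 fold change of 1.88 (SE 0.52; unadjusted p = 0.00391, edgeR adjusted p = 0.544). By DESeq2 it was the only one of the 10 to pass (log2 fold change 1.91, adjusted p = 0.0474), where edgeR called 0 and DESeq2 33 loci in all. Egr4 was at 1.02 ± 0.179 and 1.93 ± 0.218 CPM (log2 fold change 0.92, SE 0.32). Fos had a log2 fold change of 1.79 (SE 0.73) and Arc one of 1.55 (SE 0.63). The value moved with the rats that were in it. Without wild-type rat 1 the median over the genes was 2.02, without wild-type rats 2 or 3 it was 1.10 or 0.96, and without homozygous rats 1, 2 or 3 it was 1.5, 0.86 or 1.40. Among libraries with the same spike-in pattern, the mean of the homozygous rats was above wild-type rat 2 in 10 of 10 genes, by a median of 1.40 on the log2 scale, with 1 wild-type library and thus no test. Wild-type rat 2 was among the lowest rats in every gene and no homozygous rat was, so that count follows from the order of the rats. The share of symbol genes higher within this pattern alone is not given, and over all libraries it was 74.9%.

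**Figure D4:**
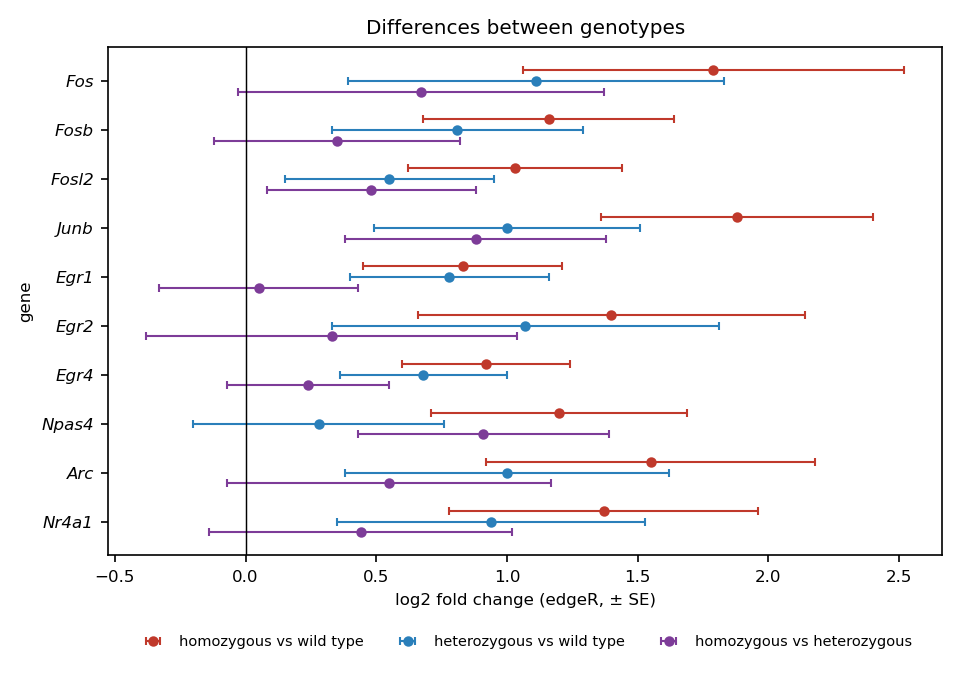
Log2 fold changes (horizontal axis, edgeR, bars ± SE) of the 10 genes for the 3 comparisons between genotypes. The points lie above 0 in all comparisons, from 0.05 for Egr1 in homozygous against heterozygous rats to 1.88 for Junb in homozygous against wild-type rats, and none passed after adjustment by edgeR.

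Heterozygous rats were compared with the same wild-type rats. The genes were higher in 10 of 10, with log2 fold changes from 0.28 (Npas4) to 1.11 (Fos) and a median of 0.87, and 0 passed (edgeR adjusted p from 0.981 to 0.982). The test called 0.00768% of all loci, 3 in number, and 0.00705% of symbol genes, and 67.5% of symbol genes had a log2 fold change above 0. No gene reached an unadjusted p under 0.05, beside 1.37% of loci and 1.96% of symbol genes that did so with a higher level. Groups without overlap were found for 0 of 10 genes, beside 2.69% of loci and 3.64% of symbol genes. Means were 16.8 ± 9.66 CPM for Nr4a1 in heterozygous against 8.75 ± 6.42 in wild-type rats, and 42.6 ± 16.8 against 24.8 ± 12.9 CPM for Egr1. The median was 1.60 without wild-type rat 1, and Npas4 turned to -0.32 without heterozygous rat 3. Among libraries of the other spike-in pattern, the mean of the heterozygous rats was above that of wild-type rats 1 and 3 in 10 of 10 genes, by a median of 0.52 on the log2 scale, although heterozygous rat 1 was below wild-type rat 1 in each. The share of symbol genes higher within this pattern alone is not given, and over all libraries it was 67.5%.

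Homozygous against heterozygous rats gave a median log2 fold change of 0.46, from 0.05 (Egr1) to 0.91 (Npas4), with 10 of 10 genes higher and 0 called (edgeR adjusted p = 1), beside 0.00256% of loci called. No gene had an unadjusted p under 0.05, beside 0.512% of loci and 0.437% of symbol genes, and a log2 fold change above 0 was found in 50.7% and 72.4%. Groups overlapped for every gene, beside 4.71% of loci and 8.75% of symbol genes in which all homozygous rats lay higher. The value rested on heterozygous rat 1 and homozygous rat 2: without them the median was 0.06 and 0.08. Without heterozygous rat 3 it was 0.76 and without homozygous rat 1 it was 0.70. Egr1 was below 0 without heterozygous rat 1 (-0.27) or homozygous rat 2 (-0.20), as did Egr2 (-0.16 and -0.26).

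A graded change with the number of deleted alleles was fitted as a slope. Its median was 0.64 log2 units per allele, from 0.42 to 0.94, and 8 of 10 genes had an unadjusted p under 0.05, beside 5.76% of loci and 12.8% of symbol genes. Slopes above 0 were found in 10 of 10 genes, 44.3% of loci and 75% of symbol genes. None passed (edgeR adjusted p from 0.444 to 0.487), as for 0% of loci, of which 4262 had an unadjusted p under 0.05. By DESeq2, Junb passed (0.96 per allele, adjusted p = 0.0436).

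The order of the mean CPM was wild type, heterozygous, homozygous in 10 of 10 genes. The same order was found in 24.5% of all tested loci and in 49.4% of symbol genes. It depended on the scale. Scaled by library totals it held in 9 of 10 genes, Egr1 being the exception, beside 11.3% of symbol genes. By the authors' TPM it held for Fos, Junb, Arc and Nr4a1, 4 of 10, beside 1.02% of symbol genes. TPM of Egr1 was 5.44 ± 2.66 (wild type), 7.58 ± 4.61 (heterozygous) and 5.71 ± 1.89 (homozygous). TPM of Arc was 6.51 ± 4.13, 10.5 ± 7.26 and 11.4 ± 6.18. On this scale symbol genes as a whole had a median log2 ratio of -0.63 between homozygous and wild-type means, and the 10 genes had one of 0.53, from 0.07 to 1.11. All 10 were above the median of symbol genes on both scales, with 10 of 10 above 0 for homozygous against wild type. Between homozygous and heterozygous rats by TPM the median over the 10 genes was -0.05, with 5 of 10 above 0, beside -0.33 for symbol genes.

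Rats of one genotype differed more in these genes than in most. The SD within genotypes of log2(CPM + 0.5) was 1.04 for Fos, larger than in 99.5% of the 12731 symbol genes at 1 CPM or more. It was 0.98 for Egr2, 0.92 for Arc, 0.86 for Nr4a1, 0.71 for Junb and Npas4, 0.64 for Fosb, 0.60 for Egr1 and 0.56 for Fosl2, each larger than in at least 97.4% of those genes. Egr4 had the smallest, 0.28, larger than in 73.2%. The median was 0.71 over the 10 genes and 0.22 over the symbol genes. Between genotypes lay 63.8% of the variance of Junb, 60.1% of that of Egr4 and 27.1% of that of Egr2, with a median of 42.2% over the 10 genes and 21.8% over symbol genes.

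The genes moved together across rats. Over all 9 rats, each of the 45 pairs of genes was correlated in log2(CPM + 0.5) with an adjusted p under 0.05 (exact permutation test, two-sided, Benjamini-Hochberg over 45 pairs), and 40 of 45 were so with the genotype means removed. How many pairs of other symbol genes would pass the same test is not given, so the counts of pairs, here and below, have no background. Because the rats fell on both sides of a gap, no r over all 9 is given. Within the 6 rats above it, a group chosen after the values were seen, Pearson's r was positive in 44 of 45 pairs, with a median of 0.73 and a range from -0.01 to 0.95. The median Spearman rho was 0.77. Of these pairs 19 had an unadjusted p under 0.05 and 0 had an adjusted one (exact permutation over 720 orderings, smallest p = 0.00278). For comparison, the median r over all pairs of symbol genes at 1 CPM or more in these 6 rats was 0.25. Nr4a1 and Arc followed the mean of the other genes most closely, with r of 0.97 and 0.95 (n = 6, given as a description). Junb followed it least, with r of 0.54, and homozygous rat 1 had 11.1 CPM of Junb beside 13 and 11.3 in the other homozygous rats, but 1.64 CPM of Egr2 beside 7.16 and 4.08. Points share their library and its scaling factor.

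Isoforms were examined because Fosb is known to be spliced into the full-length form and ΔFosB. Of the Fosb isoforms, MSTRG.3547.2 skips 140 bp at 80216767 to 80216906 on chromosome 1 (rn6), which lie inside 1 exon of isoform MSTRG.3547.1, and also has an exon 1087 bp longer. These are not the only differences, since MSTRG.3547.2 is 3748 bp long and MSTRG.3547.1 3781 bp, with 4 exons each. Whether MSTRG.3547.2 is ΔFosB was not tested. Its share of the Fosb expected counts was 43.5, 44.3 and 17.9% (wild type), 48.8, 21.6 and 16% (heterozygous) and 50.4, 21.4 and 21.1% (homozygous). Each genotype held both high and low shares. The means of homozygous and wild-type rats were 31.0 ± 16.8% and 35.2 ± 15% (SD, n = 3 each; exact permutation p = 1, two-sided, where 0.1 is the smallest that 3 against 3 allows). Arc was assembled as a pair of isoforms with shares of 48.5 and 51.5%, and for isoforms of Arc, Fosl2 and Nr4a1 the exact p ranged from 0.3 to 1.

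Other genes of the pathway were taken from lists. Of 34 other immediate early genes tested, 34 were higher in homozygous than in wild-type rats and the median of their log2 fold changes was 0.59; 10 had an unadjusted p under 0.05 and 0 passed (edgeR), with 10.7% of symbol genes at such a p. The ones with the smallest p were Gadd45g, a growth arrest and stress gene (0.961 ± 0.182 against 2.25 ± 0.391 CPM, log2 fold change 1.22), Jund, a Jun-family member (0.69), Arl4d, a small GTPase (0.85), and Per1, a circadian clock gene (0.86). Arl4d was at 3.91 ± 0.727 and 7.04 ± 2.01 CPM. Of 20 effector genes that activity induces later, 19 were higher, with a median of 0.22; Plat, tissue plasminogen activator (0.65), and Spry4, an inhibitor of receptor tyrosine kinase signalling (0.68), had an unadjusted p under 0.05, and Gpr3 (0.82) and Pim1 (0.51) came next. Genes upstream, among them receptors, kinases and the factors CREB and SRF, had a median of 0.11, below the 0.15 of symbol genes. Of these 33, 22 were higher, 3 of them at an unadjusted p under 0.05 (edgeR), and 1 was lower at such a p. Beside the counts of these lists, 74.9% of symbol genes were higher, 10.7% were higher at such a p and 0.592% were lower at such a p. Srf, the serum response factor itself, had a log2 fold change of 0.59, the kinases Map2k2 and Mapk3 had 0.50 and 0.42, and Ppp3r1, the regulatory subunit of calcineurin, had -0.44. In each list 0 genes passed in this comparison.

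Genes that glucocorticoids and heat induce were listed beside them. Of 13 glucocorticoid-response genes tested, 13 were higher, with a median log2 fold change of 0.37 and 4 at an unadjusted p under 0.05, beside 74.9% of symbol genes higher and 10.7% higher at such a p: Per1 (0.86), Ddit4 (0.71), Mt2A (0.70) and Cdkn1a (0.63). Per1 and Errfi1 are also in the list of other immediate early genes. Of 10 heat shock genes, 10 were higher, with a median of 0.21 and 1 at such a p, which is near the share of symbol genes; the chaperones named were Hspa1b (1.06), Hspb1 (0.98), Hspa8 (0.47) and Dnajb1 (0.24). Dnajb1 was at -0.07 when scaled by library totals, and Hspa8 at -0.06 with the mitochondrial share as a covariate. Neither list had a gene that passed (edgeR).

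**Figure D5:**
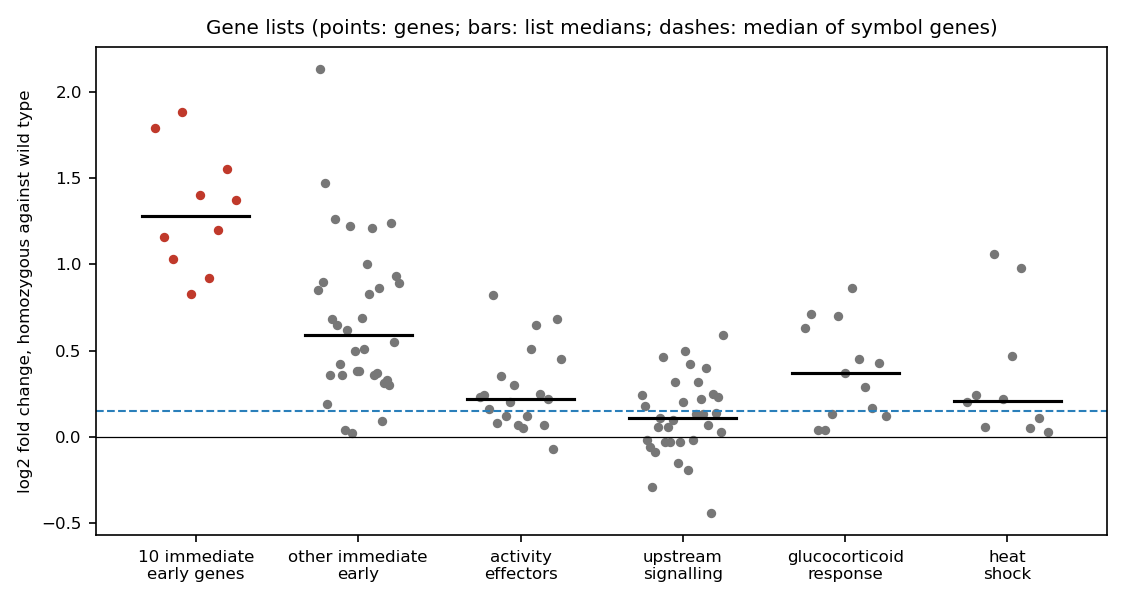
Log2 fold changes of homozygous against wild-type rats (vertical axis, edgeR) for the 10 immediate early genes and 5 other lists; points are genes, bars the medians of the lists and the dashed line the median of symbol genes, 0.15. The medians are 1.28 for the 10 genes, 0.59 for other immediate early genes and 0.11 to 0.37 for the rest.

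Levels of cell type markers are set beside this comparison. All 6 blood markers were lower in homozygous rats (median log2 fold change -1.22), summing to 357 to 691 CPM (wild type), 246 to 479 (heterozygous) and 357 to 379 (homozygous), and 5 of them had an unadjusted p under 0.05 (edgeR, 0 called), beside 4.25% of loci and 0.592% of symbol genes that were lower at such a p. All 8 microglial markers were higher (median 0.48; sums of 83.7 to 110, 103 to 128 and 119 to 133 CPM; 5 at an unadjusted p under 0.05), as were all 7 meningeal markers (0.71; 43.9 to 85.8, 94.8 to 222 and 88.4 to 119 CPM; 4 at such a p), beside 10.7% of symbol genes higher at such a p. Neurons in general had a median of 0.19 over 9 markers, 6 of them higher, and excitatory forebrain neurons 0.20 over 10 markers, 7 of them higher. For symbol genes as a whole the median was 0.15, and 74.9% were higher. Dentate granule cells, which express Arc strongly after activity, had -0.27 over 4 markers, all lower. GABAergic neurons had 0.39 over 9 markers, all higher, while the locus of a further marker, Npy, was listed at 0 in every rat. Their part in the levels of the immediate early genes was not tested.

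The genes of most similar pattern were ranked by the correlation with the score over the 9 rats, which shares libraries with the score. They were, in this order, Trib1, a pseudokinase of the Tribbles family, Mafg, Ncs1, Chrdl1, Sstr2, Ptpn1, Klf16 and Vstm2b, of 14188 symbol genes. Within the 6 rats above the gap r was 0.90 for Trib1, 0.89 for Klf16 and 0.86 for Ptpn1, and it was 0.62 to 0.85 for the others. Trib1 measured 7.16, 3.70 and 4.31 CPM (wild type), 4.75, 9.11 and 10.6 (heterozygous) and 6.06, 12.5 and 10.3 (homozygous), with wild-type rats 2 and 3 and heterozygous rat 1 lowest. The ranking picks genes with such an order, so neither that order nor the r within the 6 rats is a separate observation. Ncs1, the neuronal calcium sensor, covered a narrower range, from 184 to 255 CPM. Of the 34 other immediate early genes tested, 9 were among the 100 genes with the highest r, out of 14188 symbol genes with the 10 genes themselves left out.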

How the data were processed

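RNA of 9 rat brains was sequenced as stranded, ribosome-depleted libraries, 1 per rat, per the labels' protocols. Expected counts per locus and isoform came from RSEM and were deposited unrounded by the authors, as reads matching more than 1 transcript are shared out. TPM were computed by the authors from the same output, divided by effective transcript length and scaled per library. The percent of a gene's output given to each isoform was likewise computed by the authors. The submitters' processing notes list cutadapt, HISAT2, StringTie, RSEM and build rn6, without versions. Between the count table and each library's own file, 0 values differed. The 99 spike-in loci stayed out of library sizes.

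Expected counts were rounded. Of 114601 loci, 39057 passed filterByExpr and were fitted with edgeR 4.0.16 (quasi-likelihood, robust, TMM, all 9 libraries; R 4.3.3); adjusted p-values are Benjamini-Hochberg over these loci, with a threshold of 0.05. The common biological coefficient of variation was 0.277. Correlations used log2(CPM + 0.5) with exact permutations over rats (SciPy 1.17.1). DESeq2 1.42.0 and limma 3.58.1 were alternatives, as were other size factors, filters, covariates and leaving out each library. Loci named by assembly clone names were not counted as symbol genes. Tested on simulated counts of 37602 loci for homozygous against wild type, edgeR recovered 21% of loci at a fold of 2, 85% at 4 and 98% at 8, with 14 false calls. The folds were planted between 0 and 2 deleted alleles, so comparisons of genotypes 1 allele apart held smaller changes. For the same sets of loci, recovery was 0%, 21% and 56% for heterozygous against wild type. It was 0%, 18% and 55% for homozygous against heterozygous. The planted loci were a random draw from those above 1 CPM, simulated independently of each other. The SD within genotypes had a median of 0.71 over the 10 genes and 0.22 over symbol genes. Recovery for genes as variable as these 10, which also moved together across rats, was not tested. No 2 libraries of a genotype were alike within sampling noise. The edgeR p-values set differences between genotypes, or slopes, against the spread between these rats. Permutation p-values set a value against those from reordered rats.

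The 10 genes and all lists were chosen with earlier results of these data known. From each other list the 4 genes of smallest p between homozygous and wild-type rats are named, and the 8 genes of highest correlation with the score. Of the listed genes, Fosl1, Ier2, Amigo3, Mrtfb, Neurod2, Slc1a2, Pecam1, Lct, Tdo2 and Hba1 were not analysed here. The remaining marker medians for homozygous against wild type were 0.17 for striatum, 0.43 for cerebellum, 0.56 for hypothalamus, 0.25 for astrocytes, 0.31 for oligodendrocytes, 0.40 for endothelium and 0.59 for the 1 pineal gene tested.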

Additional observations from a re-analysis of the deposited data

How the results depend on the processing

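The direction of the 10 genes in homozygous against wild-type rats was kept in 211 of 211 values under the alternatives, and that of the slope in 200 of 200. For heterozygous against wild-type rats it was kept in 209 of 210, and for homozygous against heterozygous in 202 of 210. Egr1 reversed there to -0.13 with library totals and to -0.13 with the mitochondrial share as a covariate. The authors' TPM are not among these values. By mean TPM, 10 of 10 genes were higher in homozygous than in wild-type rats and 9 of 10 in heterozygous than in wild-type rats. Only 5 of 10 were higher in homozygous than in heterozygous rats. Library totals moved the median of all loci between homozygous and wild-type rats by -0.30 on the log2 scale, and TMM over symbol genes by -0.18; relative to symbol genes the 10 genes were then higher by 1.21 and 1.10, against 1.13 otherwise. By library totals Dnajb1 (-0.07), Mafg (-0.06) and Chrdl1 (-0.03) reversed, and Hspa8 (-0.06) did with the mitochondrial covariate.

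Loci called between homozygous and wild-type rats were 0, and 5 with library totals (2 higher, 3 lower), 6 without a filter, 1 with the mitochondrial covariate, 33 by DESeq2 and 2188 with the spike-in pattern as a covariate (1614 higher, 574 lower), which rests on 1 wild-type library sharing the pattern of the homozygous ones. The 10 genes contributed 0 calls to each, except 1 by DESeq2, and 1 by DESeq2 for the slope, both Junb. For heterozygous against wild type 3 were called, and 1 with TMM over symbol genes, 5 without a filter, 1 at 1 CPM in 3 libraries, 7 in a fit of the genotypes compared, 1 with the spike-in covariate and 18 by DESeq2. For homozygous against heterozygous 1 was called, and 2 with DESeq2 size factors, library totals, no filter, the genotypes compared or limma-voom, 5 with the spike-in covariate and 6 by DESeq2. With the spike-in covariate the median of the 10 genes there was 1.17. The slope called 0, and 1 with the spike-in covariate and 37 by DESeq2. The cause of these shifts was not tested.

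Whether replicate numbers pair the rats was not settled. Correlations of deviations between rats of the same number ran from -0.18 to 0.40 and exceeded 0.1 in 5 of 9 pairs. Between rats of different numbers they ran from -0.51 to 0.39. The main fits used no pairing. With the replicate block 1 locus was called between homozygous and wild-type and 2 between homozygous and heterozygous rats.

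Leaving out each library in turn, calls ranged from 0 to 5 for homozygous against wild type, 1 to 28 for heterozygous against wild type (28 without heterozygous rat 1), 1 to 18 for homozygous against heterozygous (18 without the same rat) and 0 to 3 for the slope. Medians of the 10 genes ranged from 0.86 to 2.02, 0.53 to 1.60, 0.06 to 0.76 and 0.45 to 0.92. Npas4 ranged from -0.32 to 0.81 in heterozygous against wild-type rats. For homozygous against heterozygous rats Egr1 ranged from -0.27 to 0.26, Egr2 from -0.26 to 0.69, Egr4 from -0.06 to 0.42 and Fosb from -0.03 to 0.56. The order of the means held in 7 to 10 of the 10 genes, and in 4 by TPM; these scales were chosen after seeing the data. Correlated pairs with an adjusted p under 0.05 were 45 over 9 rats and 0 within the 6 rats above the gap, where fewer rats enter the test. Isoform shares changed sign without single rats, in percentage points of homozygous minus wild type: Fosb MSTRG.3547.1 from -0.679 to 14 and MSTRG.3547.2 from -14 to 0.679, Fosl2 MSTRG.87069.1 from -5.63 to 13.8 and MSTRG.87069.3 from -1.30 to 13.9, Arc MSTRG.96867.1 from -9.60 to 0.377 and MSTRG.96867.2 from -0.377 to 9.60, Nr4a1 MSTRG.98537.1 from -5.07 to 5.23 and MSTRG.98537.3 from -5.24 to 5.89, the last at 0.503 by the authors' percent. Depth limits Egr2 and Egr4 most.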
